A study of Rattus norvegicus with 20 samples.

Results

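Immediate early genes are transcribed within minutes of a stimulus and need no new protein synthesis for their induction. This report follows 10 of them, chosen by name from a table of 32883 genes, in gastrocnemius muscle and abdominal white adipose tissue at the moment of tissue collection. The members were Fos (ENSRNOG00000008015), Fosb (ENSRNOG00000046667), Jun (ENSRNOG00000026293), Junb (ENSRNOG00000042838), Egr1 (ENSRNOG00000019422), Atf3 (ENSRNOG00000003745), Nr4a1 (ENSRNOG00000007607), Nr4a3 (ENSRNOG00000005964), Btg2 (ENSRNOG00000003300) and Dusp1 (ENSRNOG00000003977). The deposited table holds identifiers only, and the symbols are those supplied with the list of members. All 10 passed the filter on low counts, as did 13806 genes of the table. The animals were Fischer 344 x Brown Norway rats obtained at 8 months of age, with no treatment that sets one animal apart from another, and each of 10 rats gave 1 library per tissue. They had 2 weeks to adapt to a reversed light cycle, and were anaesthetised with isoflurane and decapitated before both tissues were removed and frozen. Each sample label says male, whereas the series text speaks of 5 males and 5 females, so sex was not used.

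The products of these genes act in a few families. Fos and Fosb proteins pair with Jun or Junb protein to form AP-1, a transcription factor, and Atf3 belongs to the same class of leucine zipper proteins. Egr1 is a zinc finger factor. Nr4a1 and Nr4a3 are orphan nuclear receptors with a known part in the response of muscle to contraction and adrenergic signals. Dusp1 is a phosphatase that switches off MAP kinases, and Btg2 restrains cell proliferation. Many immediate early genes carry serum response elements, which contain the CArG box, or cAMP response elements (CRE) near their start.

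RefSeq promoter windows (assembly GRCr8, 250 bases before to 50 after the annotated start) were held for 6 of the 10 members: Fosb, Junb, Egr1, Nr4a1, Btg2 and Dusp1. The other members are Fos, Jun, Atf3 and Nr4a3. The full CRE, TGACGTCA, was found in 2 of these 6 windows, Btg2 and Dusp1, and in 1.83% of 33469 windows of all genes. Its half-site TGACG, which lies within the full CRE and was searched on both strands, was found in 5 of 6 windows and in 21.2% of all. A CArG box was found in 1 of 6, that of Egr1, which held 2 of them, and in 1.64% of all. The AP-1 site TGANTCA was in 0 of 6 and in 7.33% of all. A match describes the letters of the window and shows no binding. The windows of 3 members are printed with the matches in capitals: Nr4a1 differed most between the tissues, Btg2 had 1 muscle library far above the rest, and Dusp1 had nearly equal medians. They lie at chr7:134259888-134260187 on the plus strand, chr13:48087641-48087940 on the minus strand and chr10:17184603-17184902 on the plus strand.
Nr4a1: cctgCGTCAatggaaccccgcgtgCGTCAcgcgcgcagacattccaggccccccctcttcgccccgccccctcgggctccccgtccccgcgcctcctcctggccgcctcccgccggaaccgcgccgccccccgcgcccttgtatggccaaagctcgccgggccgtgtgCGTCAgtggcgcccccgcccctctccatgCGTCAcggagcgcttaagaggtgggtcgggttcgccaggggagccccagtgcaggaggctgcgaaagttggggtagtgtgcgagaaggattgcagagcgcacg
Btg2: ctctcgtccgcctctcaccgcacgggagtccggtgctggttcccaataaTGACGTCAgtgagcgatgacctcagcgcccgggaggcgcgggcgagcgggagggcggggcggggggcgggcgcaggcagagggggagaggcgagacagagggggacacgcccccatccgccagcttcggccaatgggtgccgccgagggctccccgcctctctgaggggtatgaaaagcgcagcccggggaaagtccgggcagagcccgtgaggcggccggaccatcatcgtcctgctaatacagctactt
Dusp1: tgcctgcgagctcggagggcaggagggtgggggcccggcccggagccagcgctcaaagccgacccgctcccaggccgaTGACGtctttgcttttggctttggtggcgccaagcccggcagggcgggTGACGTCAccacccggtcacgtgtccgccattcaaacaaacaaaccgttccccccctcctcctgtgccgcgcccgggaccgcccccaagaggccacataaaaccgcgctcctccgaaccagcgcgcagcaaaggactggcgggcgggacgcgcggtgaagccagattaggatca
The Nr4a1 window held 4 half-sites and no full CRE. Dusp1 held 1 full CRE and 1 further half-site, and Btg2 held 1 full CRE.

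Total counts ran from 8446753 to 20141854 over the muscle libraries and from 11067755 to 25904309 over the adipose libraries. Levels are given as counts per 1000000 reads (CPM) after scaling by the trimmed mean of M values (TMM), a factor that sets the bulk of genes level between libraries. With library totals alone the median log2 fold change of all genes, muscle over adipose, moved by -1.31, and directions are therefore given under both scalings. Some libraries stood apart. Muscle library 2 was the highest of 10 in 24.9% of tested genes, against 12.6% for the next, library 1. It was also the lowest of 10 in 18.7% of tested genes. Adipose libraries 1, 3 and 5 held 168 muscle-restricted genes, chosen on these libraries, at 0.530%, 0.821% and 0.176% of their muscle level, against 0.0119% to 0.0523% in the other 7. Adipose libraries 4 and 3 were the highest in 20.4% and 18.2% of tested genes and the lowest in 20.1% and 19.6%. The labelled tissues were not checked against named markers, since the identifiers of other genes are not paired with symbols here.

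Of the 10 genes, 4 were higher in muscle (Jun, Atf3, Nr4a1 and Nr4a3), 2 were higher in adipose tissue (Fosb and Junb), and 4 did not pass the test (Fos, Egr1, Btg2 and Dusp1). The test was edgeR's quasi-likelihood test over all genes, called at a Benjamini-Hochberg adjusted p below 0.05. Among all 13806 tested genes, 37.6% were called as higher in muscle, 42.2% as higher in adipose tissue, or 79.8% in either direction, beside 6 of the 10 genes. Whether the 10 genes differ from genes at large was not tested. The median log2 fold change was 0.82 over the 10 genes and -0.09 over all tested genes. With library totals 3 genes were called higher in muscle and 4 in adipose tissue, against 12.3% and 74.2% of all genes, and the medians were -0.45 and -1.39. In bulk tissue, fewer cells that express a gene and less RNA per cell cannot be told apart.

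**Figure D1:**
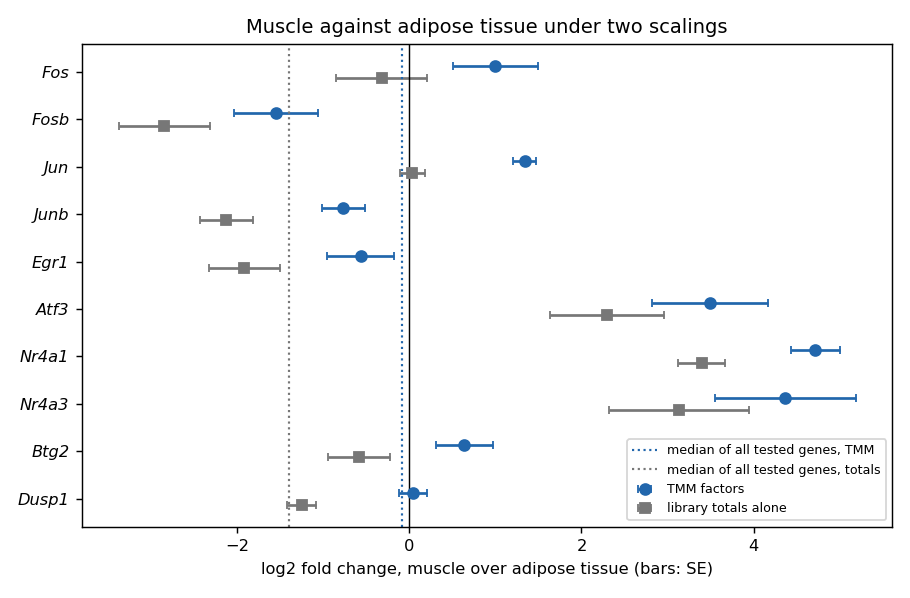
Log2 fold changes of the 10 genes, muscle over adipose tissue, with TMM factors (circles) and with library totals alone (squares); bars are SE and dotted lines the medians of all tested genes, -0.09 and -1.39. Atf3, Nr4a1 and Nr4a3 lie to the right of 0 under both scalings and Fosb, Junb and Egr1 to the left, while Fos, Btg2 and Dusp1 change sides. Jun lies at 1.34 with TMM factors and close to 0, at 0.03, with library totals.

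The NR4A receptors had the largest differences, all towards muscle. Nr4a1 ran from 407 CPM (lowest) through 544 (median) to 813 (highest) in muscle, and from 11.9 through 17.2 to 41.7 in adipose tissue. The libraries of the tissues did not overlap, as in 21.0% of all tested genes in this direction (24.5% in the other), and muscle was higher in 10 of 10 animals. The fold change was 26.4, or 4.72 on the log2 scale (edgeR adjusted p = 1.19e-12, SE 0.29), and 10.6-fold with library totals (log2 3.40, edgeR adjusted p = 9.31e-11, SE 0.27), again without overlap, as in 6.02% of tested genes. The 3 highest adipose libraries were those of animals 3, 4 and 6. Muscle-restricted genes stood at 0.821% of their muscle level in adipose library 3 and at 0.0511% in library 4. The same percentages of the muscle median of Nr4a1 are 4.46 and 0.28 CPM, beside 41.7 and 40.4 CPM measured. The part of muscle transcripts in the Nr4a1 values was not tested. Without adipose libraries 1, 3 and 5 the log2 fold change was 4.88.

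Nr4a3, a close relative of Nr4a1, had a far wider range in muscle. There it ran from 0.355 CPM (4 counts, animal 6) through 11.1 to 89.2 CPM (1097 counts, animal 2). In adipose tissue it ran from 0.331 through 1.18 to 2.32 CPM, with 6 to 70 counts. Muscle libraries 1, 5, 6 and 10 lay within the adipose range, with 4 to 20 counts, and the other 6 lay above it. The log2 fold change was 4.37 (edgeR adjusted p = 4.62e-05, SE 0.82), and 3.13 with library totals (edgeR adjusted p = 0.00115, SE 0.81). Muscle was higher in 8 of 10 animals. The size depended on the model: it was 3.18 with the animal as a block (edgeR adjusted p = 0.00193) and 2.80 with limma-voom (limma adjusted p = 0.0181). It was 3.86 without muscle library 2, which held the 89.2 CPM, and 3.75 without animal 2.

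Atf3 also spread widely over the muscle libraries. Its muscle levels ran from 6.97 through 16.96 to 264 CPM, and its adipose levels from 1.84 through 5.999 to 12.8. Muscle libraries 2 and 7, at 264 and 235 CPM, and libraries 8 and 3, at 80.8 and 65.2, stood above the other 6, which lay between 6.97 and 18.4 CPM. Of those 6, libraries 1, 4, 5 and 10 lay within the adipose range and libraries 6 and 9 above it. Libraries 2, 7, 8 and 3 were also the 4 highest for Nr4a3. The log2 fold change of Atf3 was 3.50 (edgeR adjusted p = 6.49e-05, SE 0.67), and muscle was higher in 10 of 10 animals. It was 2.20 with the animal as a block (edgeR adjusted p = 0.00701), 2.87 without animal 2, 3.66 without adipose libraries 1, 3 and 5, and 2.30 with library totals (edgeR adjusted p = 0.0027, SE 0.66), where muscle was higher in 4 of 10 animals only.

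Among the AP-1 subunits, Jun was higher in muscle and Fosb and Junb in adipose tissue. Jun ran from 246 through 337 to 481 CPM in muscle and from 115 through 141 to 173 CPM in adipose tissue. The libraries of the tissues did not overlap, as in 21.0% of tested genes in this direction. The log2 fold change of Jun was 1.34 (edgeR adjusted p = 4.5e-09, SE 0.13), but 0.03 with library totals (edgeR adjusted p = 0.828, SE 0.15), where muscle was higher in 4 of 10 animals. By library totals its medians were 208 CPM in muscle and 213 CPM in adipose tissue, and the libraries overlapped. Junb ran from 11.6 through 18.7 to 28.6 CPM in muscle and from 17.2 through 24.99 to 74.7 in adipose tissue, and the ranges overlapped. It was 1.70-fold higher in adipose tissue (log2 fold change -0.77, edgeR adjusted p = 0.0078, SE 0.25). The log2 fold change was -0.49 without animal 4, whose adipose library held the 74.7 CPM (edgeR adjusted p = 0.038). With library totals it was 4.37-fold higher in adipose tissue and no libraries overlapped, as in 50.3% of all genes in that direction.

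Fosb had a median of 4.27 CPM in muscle, between 1.44 and 15.8, and of 14.2 CPM in adipose tissue, between 4.23 and 67.2. Adipose library 6 was the highest, and muscle libraries 9 and 2, at 15.8 and 13.7 CPM, lay on either side of the adipose median. Fosb was 2.94-fold higher in adipose tissue (log2 fold change -1.55, edgeR adjusted p = 0.00626, SE 0.49), which was -0.95 without animal 6, and -2.85 with library totals. Fos, a close relative of Fosb that also pairs with Jun proteins, ran from 9.51 through 49.7 to 201 CPM in muscle and from 10.2 through 18.8 to 76.5 in adipose tissue. Its difference of 0.997 on the log2 scale missed the threshold (edgeR adjusted p = 0.0702, SE 0.50). The value was 0.52 without muscle library 2, which held the 201 CPM, 1.33 without animal 4 (edgeR adjusted p = 0.0227), 1.25 without animal 6 (edgeR adjusted p = 0.0316), and -0.32 with library totals.

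Egr1 ran from 5.44 through 38.0 to 93.0 CPM in muscle and from 22.7 through 47.3 to 184 CPM in adipose tissue. Its log2 fold change was -0.56 (edgeR adjusted p = 0.185, SE 0.39), and -1.92 with library totals (edgeR adjusted p = 0.000187, SE 0.41). Adipose tissue was higher in 8 of 10 animals. Dusp1 had a median of 150.3 CPM in muscle, between 91.3 and 212, and of 150.1 CPM in adipose tissue, between 91.0 and 193. Its difference was 0.04 on the log2 scale (edgeR adjusted p = 0.823, SE 0.16). With library totals Dusp1 was 2.38-fold higher in adipose tissue (log2 -1.25, edgeR adjusted p = 2.77e-07, SE 0.16). The libraries then did not overlap, as in 50.3% of all genes in that direction. This fold change lies close to the median of all genes on that scale, -1.39. Btg2 also had medians of 73.0 and 72.8 CPM, but in muscle it reached 406 CPM in library 2, where the next library held 153. Its log2 fold change was 0.64 (edgeR adjusted p = 0.0848, SE 0.34), 0.14 without muscle library 2 and -0.59 with library totals.

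**Figure D2:**
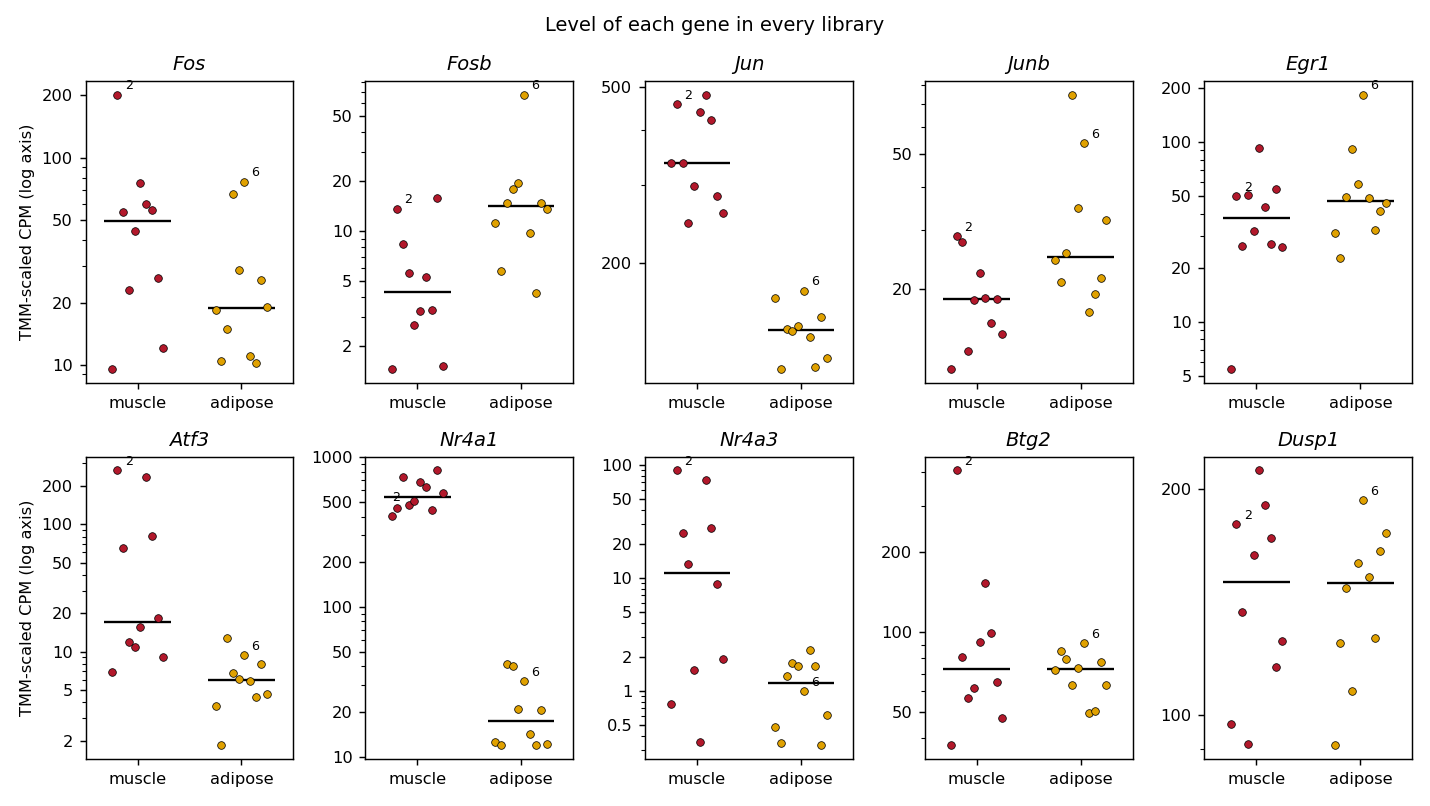
TMM-scaled CPM of each gene in every library, on log axes that differ between panels; each point is an animal (1 to 10 from left to right within a tissue), the line is the median, and animal 2 in muscle and animal 6 in adipose tissue are numbered. Nr4a1 and Jun separate the tissues completely, Dusp1 does not, and Atf3 and Nr4a3 spread widely in muscle.

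The balance between close relatives does not depend on the scaling, because both counts come from the same library and gene length cancels between tissues. The ratio of Junb to Jun counts was 3.93-fold higher in adipose tissue: the mean log2 ratio of muscle was -4.24 ± 0.40, that of adipose tissue -2.26 ± 0.63 (SD, n = 10). All 10 animals had this direction and the libraries of the tissues did not overlap. The ratio of Fosb to Fos counts was 5.32-fold higher in adipose tissue, with a muscle mean of -3.11 ± 1.14 and an adipose mean of -0.69 ± 0.56 (SD, n = 10). It was higher there in 9 of 10 animals. Nr4a3 to Nr4a1 had means of -6.22 ± 2.77 and -4.32 ± 1.02 (SD, n = 10) and was lower in muscle in 8 of 10 animals. These 3 ratios were chosen after the levels had been seen, so they are a description and no test is given.

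Animals differed far more in some of these genes than in most genes. The SD of log2 CPM over 10 muscle libraries was 2.69 for Nr4a3, 1.96 for Atf3, 1.301 for Fos, 1.16 for Fosb, 1.09 for Egr1 and 0.98 for Btg2, where the median of all tested genes was 0.35 (quartiles 0.23 and 0.59). Only 0.196% of tested genes had a larger SD in muscle than Nr4a3, and 0.42% a larger one than Atf3. Counting error alone would give 0.14 for Nr4a3 and 0.11 for Atf3 at their median counts of 103 and 173. Jun, Junb, Nr4a1 and Dusp1 had SDs of 0.35, 0.42, 0.34 and 0.42 in muscle, and between 40.8% and 52.0% of tested genes had larger ones. Nr4a1 thus had 5434 counts at the median and a 2.00-fold range over the animals, while Nr4a3 had a 251-fold range, whose lower end rests on 4 counts.

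In adipose tissue Fosb and Fos varied most. Fosb had an SD of 1.07 and Fos of 1.04, then came Nr4a3 with 0.91, Egr1 with 0.85, Atf3 with 0.76, Nr4a1 with 0.73 and Junb with 0.68, against a median of 0.41 over all tested genes (quartiles 0.27 and 0.60). Dusp1, Btg2 and Jun had 0.34, 0.29 and 0.20. For Nr4a3 at 20 counts, counting error alone would give 0.32.

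The SD was larger in muscle for 8 of the 10 genes, where 42.4% of all tested genes had the larger SD in muscle. Without animal 2 it was also larger for 8, beside 36.4% of all tested genes. Of these, Fos (1.07 in muscle, 1.03 in adipose tissue) and Fosb (1.09 and 1.04) then differed little. Absolute deviations from the tissue median were compared for each tested gene by an exact permutation test that flips the signs of the animals' differences, two-sided. Unadjusted p was below 0.05 for 1379 genes, or 9.99%, and 0 genes passed the adjustment over all. Within this limit, Btg2 (SD 0.98 in muscle and 0.29 in adipose tissue, exact permutation p = 0.0117, adjusted p = 0.375), Nr4a3 (exact permutation p = 0.0156, adjusted p = 0.40) and Atf3 (exact permutation p = 0.0176, adjusted p = 0.411) deviated more in muscle. Nr4a1 deviated more in adipose tissue (SD 0.73 against 0.34, exact permutation p = 0.0332, adjusted p = 0.456). Without animal 2 the SD of Btg2 in muscle was 0.61.

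**Figure D3:**
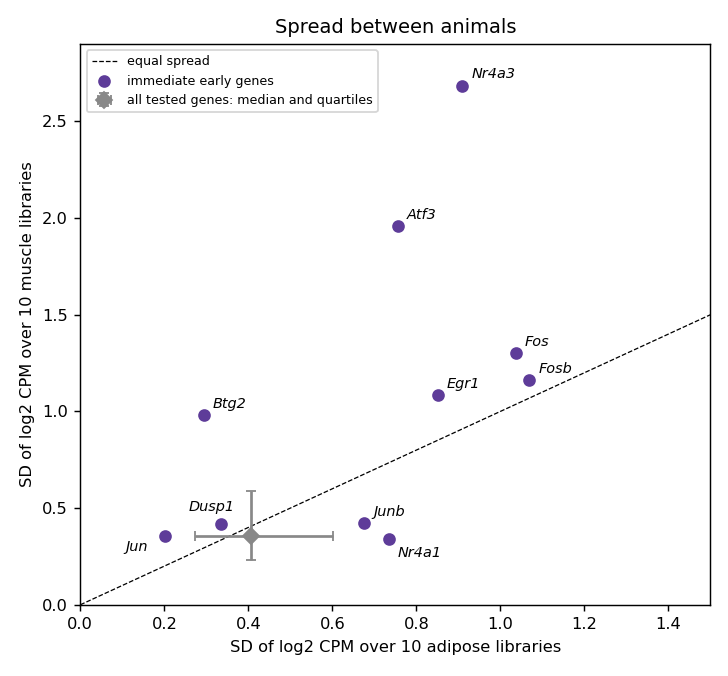
SD of log2 CPM over 10 muscle libraries (vertical) against that over 10 adipose libraries (horizontal); the diamond marks the median of all tested genes and its bars the quartiles. Nr4a3 and Atf3 lie highest, Nr4a1 and Junb lie below the line of equal spread, and Jun and Dusp1 lie near the median of all genes in muscle.

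The high and low values fell on particular libraries. Muscle library 2 was at least 2-fold above the muscle median for 5 of the 10 genes (Fos, Fosb, Atf3, Nr4a3 and Btg2) and the highest of all for 5 (Fos, Junb, Atf3, Nr4a3 and Btg2), against 9.18% and 24.9% of tested genes. On the log2 scale this library lay 3.96 above the muscle median for Atf3, 3.03 for Nr4a3, 2.48 for Btg2 and 2.02 for Fos, and at -0.26 for Nr4a1. Adipose-restricted genes stood at 1.09% of their adipose level there, the highest of the muscle libraries, whose others lay between 0.529% and 0.946%. Their part in the high values of this library was not tested. Library 7, the shallowest at 8446753 counts, was above the muscle median for 10 of the 10 genes and at least 2-fold above for 3 (Atf3, Nr4a3 and Btg2), against 38.3% and 5.18% of tested genes.

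At the other end, muscle library 1 was the lowest of all for 7 of the 10 genes and at least 2-fold below the median for 5 (Fos, Fosb, Egr1, Atf3 and Nr4a3), where 13.9% and 3.82% of tested genes were. Egr1 there held 64 counts, or 5.44 CPM, and the next muscle library held 26.1 CPM. This was the only outlying library by Dixon's test among the 10 genes in both tissues, a test that marked 10.6% of all tested genes in muscle and 10.4% in adipose tissue. Its total of 19380333 counts was the second highest of the muscle libraries. Library 10 was at least 2-fold below for 3 genes, Fos, Fosb and Nr4a3, against 2.45% of tested genes.

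In adipose tissue, library 6 was the highest for 6 of the 10 genes (Fos, Fosb, Jun, Egr1, Btg2 and Dusp1) and at least 2-fold above the median for 4 (Fos, Fosb, Junb and Egr1), against 7.73% and 1.83% of tested genes. Library 4 was at least 2-fold above for Fos, Junb and Nr4a1, against 11.7% of tested genes, and highest for 1 gene, Junb, against 20.4% of tested genes. Library 3 was highest for 2 genes, Atf3 and Nr4a1, against 18.2% of tested genes. Library 2 was the lowest for 4 genes, against 13.7% of tested genes. The total of library 6, 13489800 counts, lay within the range of the others, and its muscle-restricted genes stood at 0.0523% of their muscle level.

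**Figure D4:**
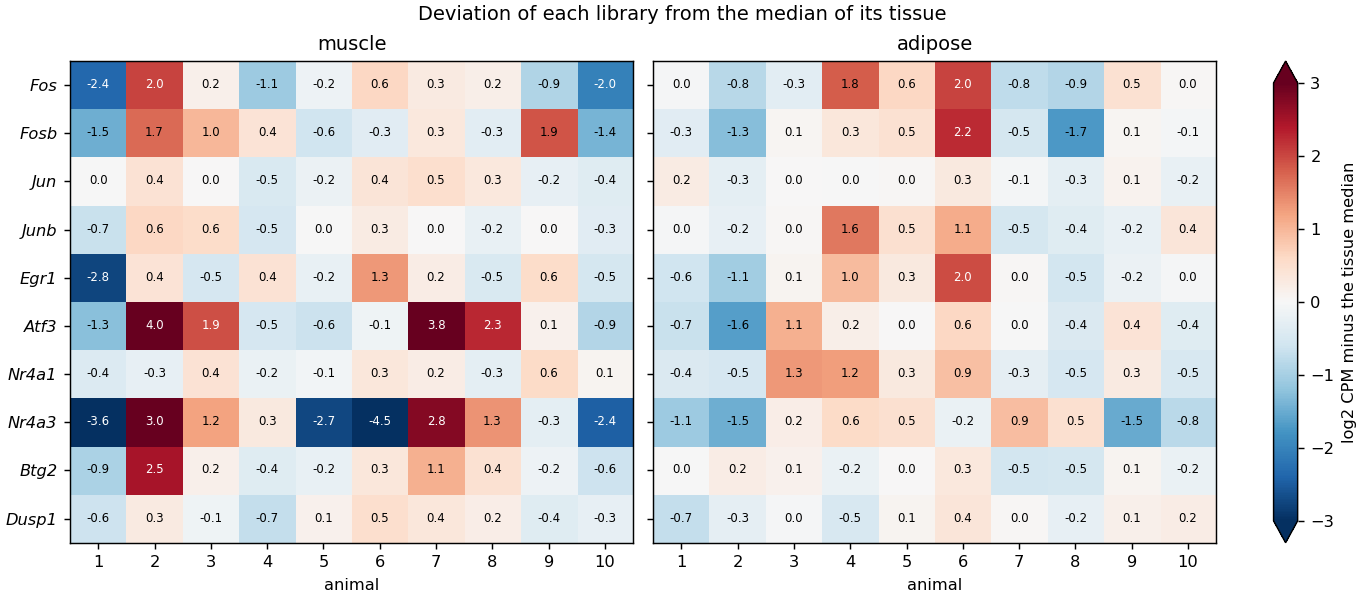
Log2 CPM of each gene minus its median over the 10 libraries of the tissue, by animal; the colour scale ends at 3 in either direction. In muscle, animal 2 is high for Fos, Fosb, Atf3, Nr4a3 and Btg2 and animal 1 low for most genes; in adipose tissue, animals 4 and 6 are high for Fos, Junb and Egr1.

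Within a tissue, most pairs of the 10 genes varied in the same direction between animals. Of 45 pairs, 42 had a positive Pearson r of log2 CPM over the 10 muscle libraries and 43 over the 10 adipose libraries. The median r was 0.55 in muscle and 0.45 in adipose tissue, where pairs of a member and any of the 13796 other tested genes had medians of 0.01 in each tissue. All genes of a library share its scaling. Permutation tests with 100000 resamples were run for 100 relations, namely 45 pairs in each tissue and 10 genes across tissues, with Benjamini-Hochberg adjustment over all 100. Unadjusted p was below 0.05 for 15 pairs in muscle and 14 in adipose tissue, and adjusted p for 4 and 5 pairs. The share of pairs with other tested genes that would pass was not computed, and it may exceed 5%. In muscle, Btg2 and Dusp1 had r = 0.66 (permutation p = 0.0275). As high an r was found in 11.4% of other tested genes with Btg2 and in 2.51% with Dusp1. By Spearman's rho, adjusted over the same relations, 10 and 7 pairs passed.

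In muscle the pairs that passed by r joined Fos, Junb, Btg2, Atf3 and Nr4a3. Fos and Btg2 had r = 0.91 (permutation p = 7.00e-05, adjusted p = 0.0035) and rho = 0.95 (permutation p = 0.00015), and r = 0.90 without libraries 1 and 10, the 2 farthest from the median of Fos. Atf3 and Btg2 had r = 0.89 (permutation p = 6.00e-05, adjusted p = 0.0035) and rho = 0.95 (permutation p = 0.00013), and r = 0.80 without libraries 2 and 7. Atf3 and Nr4a3 had r = 0.87 (permutation p = 0.00212, adjusted p = 0.0303) and rho = 0.84 (permutation p = 0.00391), and r = 0.75 without libraries 2 and 7. Fos and Junb had r = 0.84 (permutation p = 0.00245, adjusted p = 0.0306) and rho = 0.84 (permutation p = 0.00397), and r = 0.74 without libraries 1 and 10. Without animal 2 these 4 values of r were 0.86, 0.90, 0.83 and 0.77. By rho, Jun and Dusp1 passed as well, for example Fos with Dusp1 (rho = 0.89, permutation p = 0.00108, adjusted p = 0.0216) and Jun with Dusp1 (rho = 0.85, permutation p = 0.00278, adjusted p = 0.031). Over all 10 animals Nr4a1 had the lowest mean r with the other 9 genes, 0.18, and r = -0.01 with Nr4a3 (permutation p = 0.988, rho = -0.09, permutation p = 0.812); its mean r was 0.41 without animal 2.

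Without adipose libraries 1, 3 and 5 the median r over the adipose pairs was 0.51. In adipose tissue the pairs that passed by r joined Fos, Fosb, Junb and Egr1, and Atf3 with Nr4a1. By rho, Fosb with Junb also passed (rho = 0.87, permutation p = 0.00185, adjusted p = 0.0266). So did Nr4a1 with Fosb and with Egr1 (each rho = 0.83, adjusted p = 0.031, permutation p = 0.00496 and 0.00462), whereas Fos with Egr1 did not (adjusted p = 0.0823). Fos and Junb had r = 0.91 (permutation p = 0.00078, adjusted p = 0.017) and rho = 0.87 (permutation p = 0.00186). Of the 13796 other tested genes, 0 had as high an r with Fos and 0.0145% had one with Junb. Without libraries 4 and 6, the farthest from the median of Fos, the r of Fos and Junb was 0.72. Fosb and Egr1 had r = 0.90 (permutation p = 0.00085, adjusted p = 0.017) and rho = 0.85 (permutation p = 0.00305), and r = 0.82 without libraries 6 and 8. Fos and Fosb had r = 0.86 (permutation p = 0.00015, adjusted p = 0.005) and rho = 0.92 (permutation p = 0.0004), and r = 0.85 without libraries 4 and 6. Fos and Egr1 had r = 0.87 (permutation p = 0.00151, adjusted p = 0.0252) and rho = 0.75 (permutation p = 0.0173), and r = 0.54 without libraries 4 and 6, so that this relation rests in large part on them. Atf3 and Nr4a1 had r = 0.79 (permutation p = 0.00357, adjusted p = 0.0397) and rho = 0.90 (permutation p = 0.00085), and r = 0.79 without libraries 2 and 3. As high an r was found in 0.507% of other tested genes with Atf3 and in 0.732% with Nr4a1. Library 3 was high in both Atf3 and Nr4a1 and also had the most muscle transcripts.

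Of the pairs that passed, Fos and Junb did so in both tissues. Other pairs had different values in the tissues. Nr4a1 and Fos, for example, had r = 0.10 in muscle (permutation p = 0.792, rho = 0.16, permutation p = 0.657) and r = 0.68 in adipose tissue (permutation p = 0.0334, adjusted p = 0.134, rho = 0.65, permutation p = 0.0476). The values without the 2 farthest libraries were -0.28 and 0.33, and the difference between the tissues was not tested. Nr4a3 and Btg2 had r = 0.69 in muscle (permutation p = 0.0178, adjusted p = 0.0903, rho = 0.68, permutation p = 0.0344) and r = -0.57 in adipose tissue (permutation p = 0.092, rho = -0.54, permutation p = 0.114), where Nr4a3 had few counts. Without the 2 farthest libraries these were 0.80 and -0.43.

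**Figure D5:**
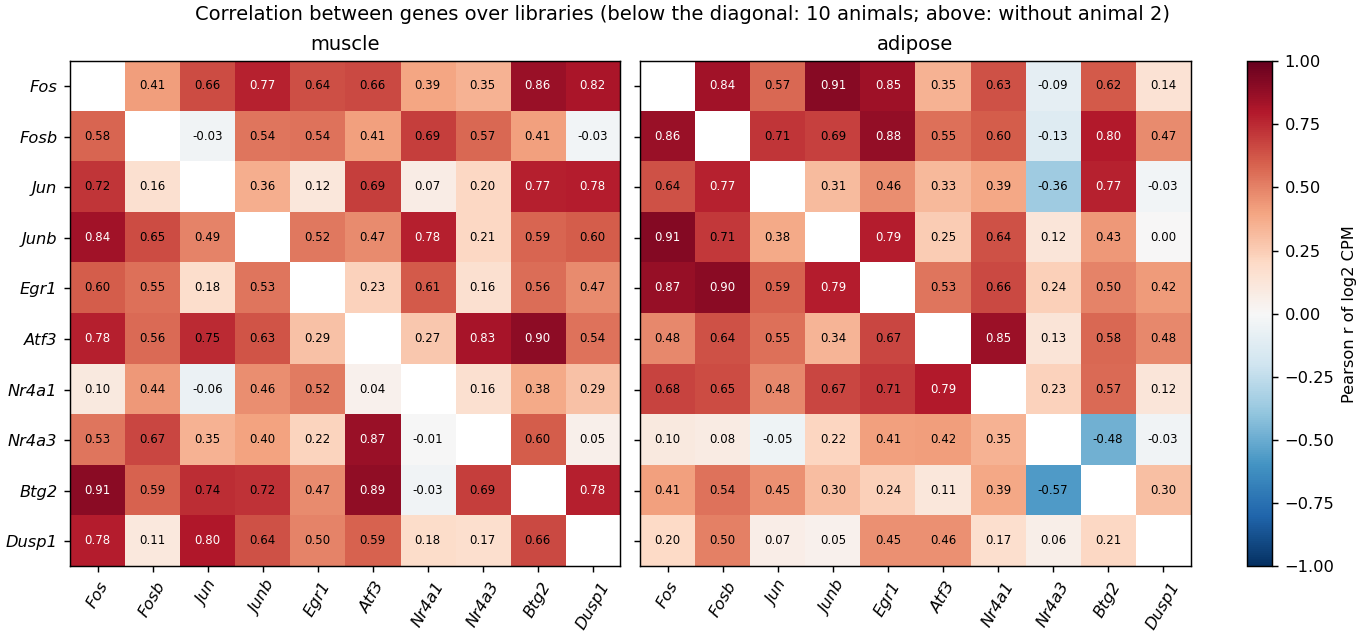
Pearson r of log2 CPM between genes over the libraries of a tissue, below the diagonal for all 10 animals and above it without animal 2. The strongest values join Btg2 with Fos and with Atf3 in muscle, and link Fos, Fosb, Junb and Egr1 in adipose tissue. Below the diagonal, Nr4a1 in muscle and Nr4a3 in adipose tissue have the lowest mean r, 0.18 and 0.11.

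No relation between the muscle and adipose levels of the same animal passed the test. Across the 10 animals, the r of a gene's muscle and adipose levels ran from -0.28 for Atf3 to 0.56 for Dusp1, with a median of -0.02 and 5 of 10 above 0, where the median of the other tested genes was 0.09 and 58.5% lay above 0. Permutation p was below 0.05 for 0 of the 10 genes by r or by rho. Dusp1 had the lowest p (r = 0.56, permutation p = 0.0916, adjusted p = 0.225, rho = 0.42, permutation p = 0.232), and its r was -0.11 without animals 1 and 4, the farthest from the muscle median, but 0.65 without animal 2. Egr1 had r = 0.53 (permutation p = 0.129, adjusted p = 0.274, rho = 0.41, permutation p = 0.247), 0.03 without animals 1 and 6 and 0.71 without animal 2. Fos had r = -0.22 (permutation p = 0.54, rho = -0.31, permutation p = 0.387) and r = -0.46 without animals 1 and 10. Without animal 2 the median over the genes was 0.15 and 8 of 10 lay above 0. With 10 animals, weak relations between the tissues were not detectable.

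The genes most like these 10 were sought among the other tested genes by the mean r with all 10 over 10 libraries. In muscle ENSRNOG00000001414 came first, with a mean r of 0.70 (0.19 to 0.91 with single members) and levels from 1.36 through 9.07 to 41.3 CPM, the highest in animal 2. ENSRNOG00000006515 followed with 0.69, at levels of 1.36 to 2.68 CPM, a low and narrow range whose counting error was not computed. The genes named here head a ranking of 13796 genes on the same libraries, and their place was not tested. In adipose tissue ENSRNOG00000007687 came first with 0.64 and levels from 13.4 through 19.5 to 32.4 CPM, highest in animal 6, and ENSRNOG00000011644 followed with 0.63. Within the 10 genes the highest mean r with the other 9 was that of Fos in muscle, 0.65, and of Fosb in adipose tissue, 0.63.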

How the data were processed

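RNA of 10 mg muscle or 30 mg adipose tissue was used, and 300 ng entered an mRNA library kit, per the labels' protocols. Tools listed in the submitters' processing notes are bcl2fastq, STAR and featureCounts, with the assembly rn6. For annotation, strandedness and multiply mapped reads no setting is given in the sources used here, so reads shared by related or overlapping genes may be split or dropped. The authors deposited expected counts per gene, not normalised, of which 25.3% of those above 0 were whole within 0.005; they were rounded for the tests.

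The main test was run with edgeR 4.0.16 in R 4.3.3 (filterByExpr, TMM factors, robust quasi-likelihood test, no animal block); SE is the log2 fold change over the root of F. Log2 CPM used a prior count of 2, and ratios added 0.5 to each count. Correlations and sign-flip tests used Python 3.11.15. Muscle-restricted genes had a median of at least 20 CPM by library totals and 100 times the adipose median, and adipose-restricted genes (154) the reverse. Counts are reads without molecular identifiers, so counting error is a lower limit.

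Numbers in the titles name the rats, so equal numbers mark 1 animal, per the labels. Deviations over 8303 genes had same-animal correlations of -0.22 to 0.42, above 0.1 in 6 of 10 animals. Their median was 0.12, against -0.03 for different animals, and the best match was the own animal for 2 of 10. The pairing therefore rests on the labels. The edgeR fit was tested on simulated data in which few genes differed, in both directions alike, so that test does not bear on the choice of scaling. Alternatives were other factors and filters, DESeq2 1.42.0, limma-voom (limma 3.58.1), the animal block and libraries left out; the paralogue ratios and DESeq2 without replacement of outlying counts were added after seeing the data.

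The members and lists were chosen with earlier results of these data known. All 10 members are named, and besides them the 2 genes per tissue most like them. Lists of other immediate early genes and of cell type markers were not analysed here, since the identifiers are not paired with symbols.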

Additional observations from a re-analysis of the deposited data

Results flagged for a closer look

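Each of 20 groups (10 genes, 10 libraries per tissue) had its extreme libraries set against their nearest neighbour in log2 CPM. In 1 of them the gap exceeded Dixon's 95% critical value: Egr1 in muscle library 1 stood at 2.47, next to 4.71 for the nearest muscle library, a gap of 0.55 of the whole range. Chance flags about 1 in 20 groups, and 10.6% of all tested genes had such a library in muscle and 10.4% in adipose tissue. The library was low for most of the 10 genes, as described.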

How the results depend on the processing

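The number of the 10 genes called higher in muscle was 4 in the reported fit, 3 with library totals and 4 or 5 elsewhere, where Fos was the fifth (DESeq2 with or without replacement of outlying counts, log2 fold change 1.04, adjusted p = 0.0322 and 0.0323; without animal 4 or 6). The number called higher in adipose tissue was 2 in each alternative but library totals, where it was 4, with Egr1 (-1.92) and Dusp1 (-1.25) added. Jun was not called with library totals (0.03). Signs turned for Fos (-0.32), Btg2 (-0.59) and Dusp1 (-1.25) with library totals, for Dusp1 with upper-quartile factors (-0.15), and for Dusp1 when animals were left out in turn (-0.013 to 0.11); the cause was not tested. With the replicate block, the animal, 10990 genes were called against 11011 without it, and no call among the 10 genes changed. Genes called lay between 10566 and 11932 in the fits with the filter on low counts, and were 13894 of 23140 tested without it; with library totals 14.2% of called genes were higher in muscle, against 47.1%. Without single animals the larger spread in muscle held for 6 to 8 genes, the median r lay between 0.40 and 0.63 in muscle, 0.32 and 0.55 in adipose tissue and -0.07 and 0.15 across tissues, and Fos had log2 fold changes of 0.41 to 1.33. Nr4a3 in adipose tissue and in 4 muscle libraries rests on at most 70 counts, which limits its spread and correlations.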
